A study of Arabidopsis thaliana with 15 samples.

Results

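The UV-B response of wildtype leaves was taken as the difference between 3 arrays of plants given UV-B and 3 arrays of plants kept in white light, 6 of the 15 Affymetrix ATH1 arrays of an Arabidopsis thaliana study. The wildtype UV-B plants (accession Landsberg erecta) spent 3 weeks in compost at 21 °C under warm white tubes that gave 25 µmol m-2 s-1 without a dark period, and were then exposed for 4 h to UV-B at 3 µmol m-2 s-1. The wildtype white light plants were grown the same way and had no further treatment. The labels do not say whether the white light stayed on during the UV-B, so the gain of UV-B and a loss of white light cannot be told apart. The uvr8-1 mutant, which lacks function of the UV-B photoreceptor UVR8, had 3 arrays under the same UV-B and 3 in white light, and these 6 arrays are used below for comparison. The 3 hy5-1 arrays under UV-B entered only the estimate of the spread. All groups share the Landsberg erecta background, 1 UV-B dose and 1 time point. The series title sets the genes induced in wildtype against the 2 mutants, and the question addressed here is which functions changed in wildtype.

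UV-B is known to act on leaves in more than 1 way. The photoreceptor UVR8 senses low doses and switches on genes for flavonoid and sinapate sunscreens, partly through the bZIP factors HY5 and HYH. Higher doses damage DNA and generate reactive oxygen, and then call on detoxification, protein repair and wound or defence signalling, while growth and photosynthesis genes are often lowered.

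Each array gave a log2 level, made with RMA, for 22746 probe sets that are not controls, and the array medians lay between 4.31 and 4.40. A gene is represented by its own probe set, which was available for 13356 genes, of which 1557 carry a symbol in the annotation used here. The other genes are known by locus number only. A gene was called when the adjusted p of its UV-B minus white light difference was under 0.05. Over all probe sets 30.5% were called, 12.2% higher and 18.3% lower, and 7.04% were called and at least 2-fold higher, 5.39% called and at least 2-fold lower. By gene, 1438 genes (10.8%) were higher and 2208 genes (16.5%) were lower under UV-B, and the median difference over all genes was −0.03 on the log2 scale. Of these, 781 genes (5.85%) were at least 2-fold higher and 627 (4.69%) at least 2-fold lower. Among the genes with a symbol, 12.1% were higher and 22.3% lower. These shares are the background for the classes below, which were put together from symbols. The shares changed at least 2-fold varied with the white light level, and the class counts are not adjusted for it. Of the 6780 genes with a white light level under 4, 3.32% were called at least 2-fold higher and 0.04% at least 2-fold lower. Of the 713 at 8 to 10 it was 2.66% higher and 16.3% lower, and of the 147 at 10 or more 0% and 20.4%. Differences are log2 levels under UV-B minus log2 levels in white light, so that 1 is a doubling, with the standard error of the model after ±. Class counts of 1 or 2 genes often moved over 1.5 times when an array was left out or another setting was used. A class share near 12.1% higher or 22.3% lower is not read as a change of its class.

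Replicate arrays correlated at 0.979 to 0.984 within the UV-B group and at 0.983 to 0.989 within the white light group. RNA integrity was read from control transcripts with probe sets at both ends, as the 3' level minus the 5' level. For GAPDH it was 0.97 ± 0.05 under UV-B and 0.80 ± 0.15 in white light (SD, n = 3 each). The exact permutation p of this contrast was 0.1, the smallest that 3 arrays against 3 allow, and its part in the results was not tested. For actin it was 3.49 ± 0.38 under UV-B, against 3.55 ± 0.23 in white light (exact permutation p = 0.8). For ubiquitin it was 1.19 ± 0.07 under UV-B, against 1.14 ± 0.32 in white light (exact permutation p = 0.9). The arrays were labelled as leaf, and the mesophyll gene RCA, the activase of Rubisco, stood at 12.34 to 12.46 under UV-B and 12.40 to 12.50 in white light. The other measured mesophyll marker, LHCB4.2, was called lower (−2.34 ± 0.29). It was at 8.27 to 9.27 under UV-B and at 10.69 to 11.32 in white light. Of the 36 marker genes listed for 7 cell types and organs, 6 had a probe set and a symbol. Among these the guard cell gene FMA was at 5.57 to 5.92 under UV-B and at 5.90 to 6.34 in white light, and the root gene PYK10 was at 7.53 to 7.70 under UV-B and at 7.78 to 8.33 in white light. The root hair gene EXPA7 and the seed gene PAP85 were at 3.51 or below on every wildtype array. None of the epidermal, vascular and floral markers listed had a probe set of their own with a symbol. In these bulk samples, fewer cells of a type and less RNA per cell cannot be told apart.

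Genes of UV protection were called higher in part and none was called lower. In the flavonoid and anthocyanin class, which makes UV-absorbing pigments, 4 of 7 genes were higher with a class median of 1.83. Of 14 genes of the phenylpropanoid, sinapate and hydroxycinnamate class 4 were higher, with a class median of 0.08. UGT84A1, which joins glucose to hydroxycinnamates such as sinapate, had levels of 7.05, 8.18 and 6.87 under UV-B, against 3.59, 3.33 and 3.29 in white light, a difference of 3.97 ± 0.26 (adjusted p = 2.11e-07). Its neighbour on the chromosome, UGT84A3, of the same enzyme group, had 7.45, 7.15 and 6.92 under UV-B and 4.22, 5.02 and 4.55 in white light (2.57 ± 0.26, adjusted p = 7.92e-06). The naming rule required that the arrays of the groups not overlap, as was so for 773 of the 781 genes at least 2-fold higher.

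CCOAMT, a caffeoyl-CoA methyltransferase gene, was higher by 3.18 ± 0.38 (adjusted p = 2.96e-05). CCR2, a cinnamoyl-CoA reductase gene, had 3.42, 5.79 and 6.27 under UV-B, against 3.15, 3.01 and 3.08 in white light. UV-B replicate 1 thus lay close to the white light arrays, and the call of CCR2 (2.08 ± 0.69, adjusted p = 0.0359) ended in 7 of 13 alternative analyses, with adjusted p = 0.159 without UV-B replicate 3. Among the anthocyanin genes UF3GT, which adds a sugar to anthocyanins, had 5.48, 6.86 and 5.94 under UV-B and 4.53, 4.45 and 3.81 in white light (1.83 ± 0.31, adjusted p = 0.000559). The flavonoid genes that did not pass were UGT78D3 and BAN, both at 3.08 or below under UV-B, and UGT78D1, a flavonol rhamnosyltransferase gene, at −0.25 ± 0.29. BAN acts in seed coats. In the class of light signalling and the clock, HYH was higher, at 7.58, 8.43 and 8.15 under UV-B and 3.53, 2.82 and 4.36 in white light (4.48 ± 0.45, adjusted p = 6.82e-06). AFR, an F-box gene of phytochrome A signalling, was the other call, and thus 2 of the 11 genes of that class passed. That count was 1 without UV-B replicate 1 or 2 or white light replicate 2 or 3, and in the fit of the 6 wildtype arrays.

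**Figure D1:**
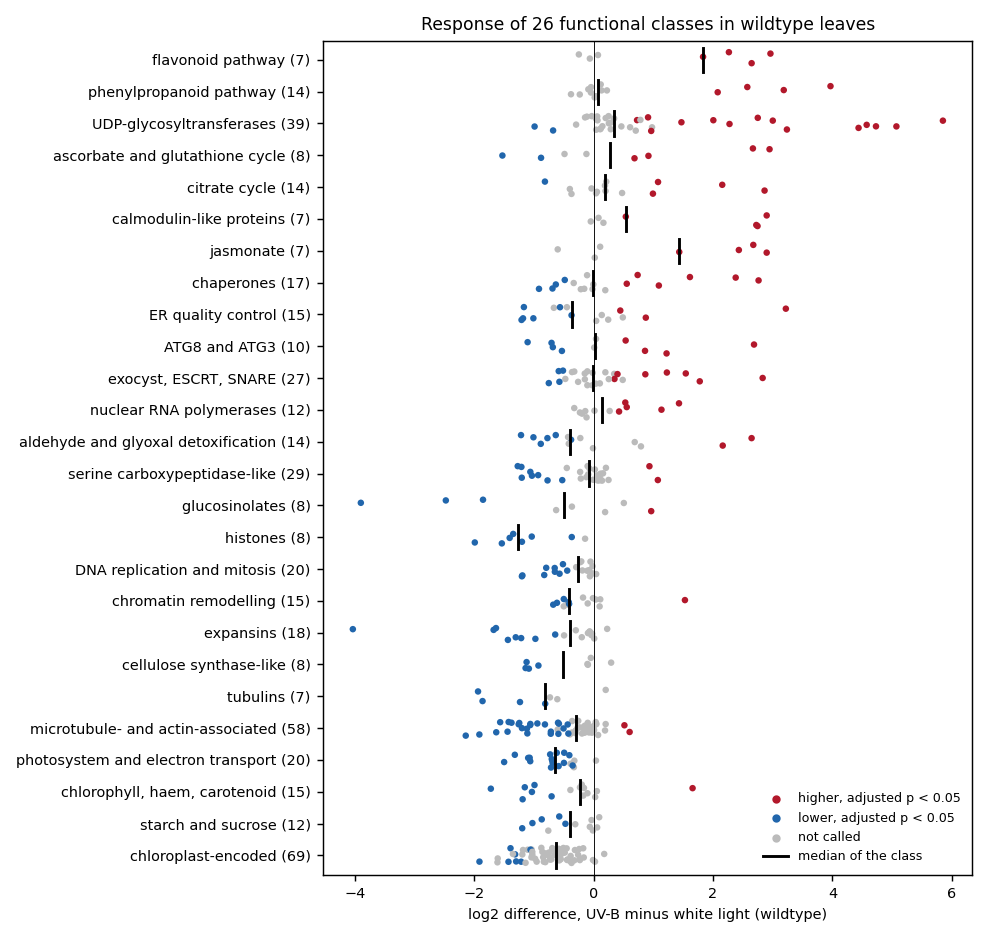
Log2 difference between UV-B and white light in wildtype leaves (horizontal axis) for each gene of 26 of the 68 functional classes. The number of genes follows the class name. The 26 were picked by hand and do not stand for all classes. Points are genes, red if called higher, blue if called lower and grey if not called, and black bars are class medians; the flavonoid median lies at 1.83 and the histone median at −1.27.

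Detoxification genes moved both ways, with the largest rises among the glycosyltransferases, which attach sugars to hormones, plant metabolites and foreign compounds. Of the 39 UDP-glycosyltransferase genes outside the flavonoid and phenylpropanoid classes, 14 were higher and 2 lower, with a median of 0.34. UGT73C1, which can glucosylate cytokinins and foreign compounds, had 7.08, 7.74 and 7.34 under UV-B and 2.52, 2.66 and 2.80 in white light (4.73 ± 0.20, adjusted p = 4.49e-09). UGT73B4 was higher by 5.07 ± 0.37, and UGT73B5, its neighbour on the chromosome, by 5.85 ± 0.39. A pair of hormone-related members was singled out after the values were seen. UGT76B1, which conjugates isoleucic acid and salicylate, was higher by 4.44 ± 0.48, and UGT71B6, which conjugates abscisic acid, by 3.24 ± 0.27. The larger of the 2 falls was that of UGT88A1 (−0.99 ± 0.21). The lower count was 1 without UV-B replicate 2 or 3 or white light replicate 2 or 3, in the fit of the 6 wildtype arrays and in the upper 60% of probe sets.

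Glutathione transferases, which tag reactive molecules with glutathione, split into 3 genes higher and 4 lower out of 14. GSTU28 had 5.73, 6.39 and 5.77 under UV-B, against 4.12, 3.57 and 3.89 in white light (2.11 ± 0.22, adjusted p = 1.01e-05). GSTU27 went the other way, with 6.36, 6.72 and 6.72 under UV-B, against 8.32, 9.25 and 8.83 in white light (−2.2 ± 0.22, adjusted p = 5.82e-06). GSTU20 was lower too (−1.36 ± 0.31). Of 23 cytochrome P450 genes 5 were higher and 4 lower, led by CYP71B23 (2.84 ± 0.37) and CYP71B6 (2.24 ± 0.25). Their share lower, 17.4%, was below the 22.3% of all genes with a symbol. The lower count was 1 without UV-B replicate 3 or white light replicate 3 and in the fit of the 6 wildtype arrays. Without white light replicate 2 it was 2, with 3 genes higher.

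Among the 14 genes for aldehyde dehydrogenases, alkenal reductases and glyoxalases, which clear reactive carbonyls, 2 were higher and 6 lower. The 2 that rose were AER, an alkenal reductase that acts on products of lipid peroxidation (2.65 ± 0.29), and ALDH2C4, which makes ferulate and sinapate (2.16 ± 0.17). ALDH2C4 had 10.09, 10.55 and 10.29 under UV-B and 7.94, 8.27 and 8.23 in white light. ALDH3F1 was the largest fall at −1.22 ± 0.18 (adjusted p = 0.000191).

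The cycle that keeps ascorbate and glutathione reduced had 4 of 8 genes higher and 2 lower. ATMDAR2, a monodehydroascorbate reductase gene, had 9.14, 9.39 and 10.12 under UV-B, against 6.35, 6.96 and 6.5 in white light (2.95 ± 0.22, adjusted p = 5.81e-07). GR1, the cytosolic glutathione reductase gene, had 10.31, 10.14 and 9.96 under UV-B and 7.45, 7.25 and 7.71 in white light (2.67 ± 0.26, adjusted p = 5.04e-06). The groups were apart on every array for both recycling enzymes, as the naming rule required. SAPX, an ascorbate peroxidase of the chloroplast stroma and mitochondria, was higher by 0.92 ± 0.16, whereas TAPX, the ascorbate peroxidase of the thylakoid membrane, was at −0.88 ± 0.18 (adjusted p = 0.00235). In the synthesis of ascorbate, GME was higher by 0.68 ± 0.10 and VTC4 was lower (−1.53 ± 0.22).

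Thioredoxins, glutaredoxins, peroxiredoxins and methionine sulfoxide reductases had 5 genes higher and 5 lower out of 20. The 25% lower was near the 22.3% of all genes with a symbol. GRX480, a glutaredoxin of salicylate and jasmonate signalling, had 6.2, 7.62 and 8.02 under UV-B and 4.26, 3.86 and 4.39 in white light (3.11 ± 0.57). MSRB3, which repairs oxidised methionine, was higher by 1.15 ± 0.18, and TRXF2, a chloroplast thioredoxin that activates carbon fixation enzymes, was at −1.12 ± 0.17. The higher count was 3 without UV-B replicate 3, white light replicate 1 or white light replicate 2. The lower count was 3 without UV-B replicate 2 or 3 or white light replicate 2 or 3 and in the fit of the 6 wildtype arrays.

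NDB2, an alternative NAD(P)H dehydrogenase on the outside of the inner mitochondrial membrane, had 8.86, 9.06 and 9.95 under UV-B, against 5.38, 4.98 and 4.94 in white light (4.19 ± 0.25, adjusted p = 8.49e-08), while its relative NDB1 was at −0.51 ± 0.14 (adjusted p = 0.0111). In the citrate cycle class, 4 of 14 genes were higher and 1 lower (2 lower without white light replicate 1, in the fit of 12 arrays, after quantile normalisation and with the replicate block). SDH2-1, the iron-sulfur subunit of succinate dehydrogenase, had 10.25, 10.65 and 10.57 under UV-B, against 7.59, 7.64 and 7.66 in white light (2.86 ± 0.12, adjusted p = 6.78e-09). A second probe set assigned to SDH2-1 lay between 2.60 and 2.84 on all 6 arrays, near the bottom of the signal range, and showed no call (−0.06 ± 0.11). SDH1-1, the flavoprotein subunit of the same complex, had 9.41, 9.36 and 9.34 under UV-B and 7.0, 7.42 and 7.23 in white light (2.15 ± 0.16, adjusted p = 6.14e-07). Both main subunit genes thus stood about 4-fold or more above their white light level, while the paralogues SDH1-2 (0.20) and SDH2-2 (0.48) did not pass. The isocitrate dehydrogenase subunit genes IDH-V (1.08 ± 0.16) and IDH-VI (0.99 ± 0.11) were higher, and ACLB-1, which cleaves citrate in the cytosol, was lower (−0.82 ± 0.15).

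**Figure D2:**
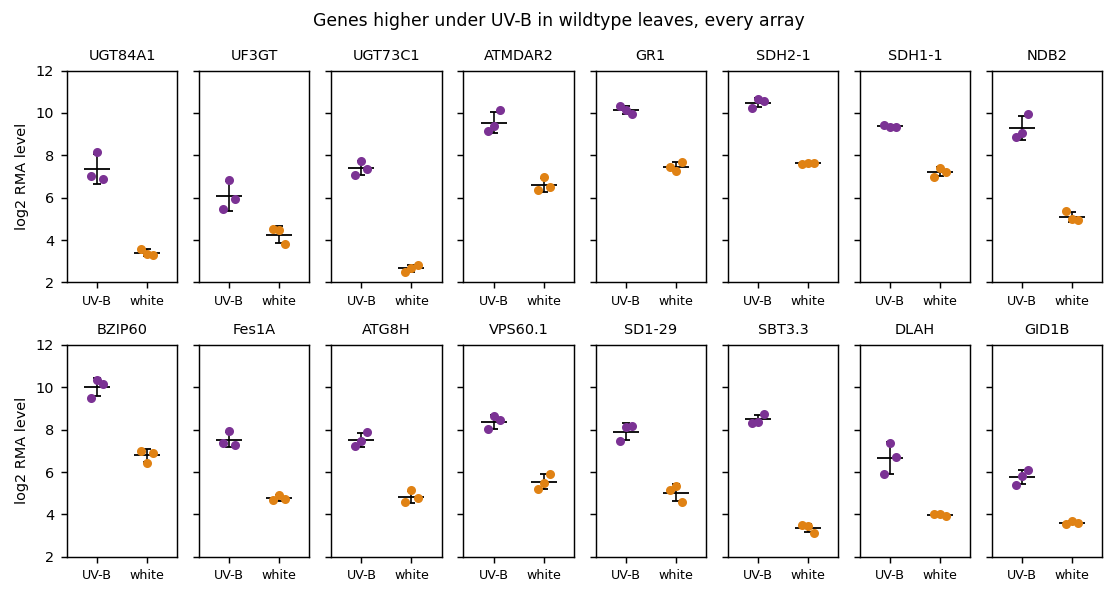
Log2 RMA level (vertical axis) of 16 genes called higher under UV-B, on the 3 UV-B arrays (left, purple) and the 3 white light arrays (right, orange) of wildtype. Points are arrays and black lines are the mean and SD; in every panel the UV-B arrays lie above the white light arrays, as the naming rule required.

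Of 17 chaperone genes 6 were higher and 4 lower. Those that rose included an HSP70 gene and partners of HSP70. Fes1A, a cytosolic nucleotide exchange factor, had 7.36, 7.96 and 7.28 under UV-B, against 4.66, 4.91 and 4.74 in white light (2.76 ± 0.28, adjusted p = 8.75e-06). Hsp70-2 had 8.33, 8.54 and 8.61 under UV-B and 6.02, 6.33 and 6.0 in white light (2.38 ± 0.18, adjusted p = 5.96e-07). SGT1A, a co-chaperone of immune receptors, was higher by 1.61 ± 0.25 and Hop2 by 1.09 ± 0.16. The falls included Fes1B (−0.92 ± 0.17) and the chloroplast chaperonin gene Cpn60beta4 (−0.69 ± 0.15).

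In the endoplasmic reticulum, 3 of 15 quality control genes were higher and 6 lower, with a median of −0.37. BZIP60, a transcription factor of the unfolded protein response, had 9.51, 10.33 and 10.17 under UV-B and 6.99, 6.45 and 6.92 in white light (3.22 ± 0.31, adjusted p = 4.35e-06), and the related factor gene BZIP28 was higher by 0.87 ± 0.13. The calreticulin gene CRT1b had 6.82, 7.30 and 7.63 under UV-B, against 8.30, 8.47 and 8.48 in white light (−1.17 ± 0.19, adjusted p = 0.000449). OS9, a lectin that hands misfolded glycoproteins to degradation, was at −1.21 ± 0.18 and the J-domain protein gene ATERDJ3B at −1.01 ± 0.22.

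Autophagy genes for ATG8, the ubiquitin-like protein that coats autophagosome membranes, and ATG3, which loads it, had 4 of 10 members higher and 4 lower. ATG8H (AT3G06420) had 7.21, 7.46 and 7.89 under UV-B, against 4.58, 5.14 and 4.79 in white light (2.69 ± 0.22, adjusted p = 1.36e-06). ATG8B was higher by 1.22 ± 0.18 and ATG8E by 0.86 ± 0.19. ATG8F, the most strongly lowered, had 8.78, 8.04 and 8.03 under UV-B and 9.50, 9.40 and 9.28 in white light (−1.11 ± 0.19, adjusted p = 0.000512), and APG8H (AT3G15580) was at −0.70 ± 0.09. The ATG8 genes thus did not respond as a unit. Among other genes of protein removal, the ubiquitin-conjugating enzyme gene UBC16 was higher by 1.36 ± 0.21 and the ubiquitin-specific protease gene UBP24 by 1.25 ± 0.17.

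Membrane trafficking genes of the exocyst, ESCRT and SNARE machineries had 7 of 27 members higher and 4 lower, with a median of −0.015. The rises included the ESCRT genes VPS60.1, VPS20.1, ELC, VPS2.1 and VPS46.2, whose products sort ubiquitinated membrane proteins for destruction in the vacuole. VPS60.1 had 8.01, 8.67 and 8.44 under UV-B, against 5.20, 5.51 and 5.92 in white light (2.83 ± 0.25, adjusted p = 2.76e-06). VPS20.1 was higher by 1.54 ± 0.28 and ELC, a subunit that binds ubiquitin, by 1.23 ± 0.14. SEC1B, a regulator of SNARE fusion, was higher by 1.78 ± 0.28 (adjusted p = 0.000265). Among the falls was VPS9B at −0.75 ± 0.16.

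Of 16 receptor and receptor-associated kinase genes 3 were higher and 2 lower. B120, a lectin receptor-like kinase gene, had 6.75, 8.37 and 8.43 under UV-B, against 3.01, 2.85 and 2.72 in white light (4.99 ± 0.53, adjusted p = 1.2e-05). SD1-29, the receptor kinase that senses bacterial hydroxy fatty acids, had 7.46, 8.10 and 8.16 under UV-B and 5.15, 5.34 and 4.59 in white light (2.88 ± 0.42, adjusted p = 0.000153). BIK1, the cytoplasmic kinase below many immune receptors, was higher by 2.89 ± 0.33. UV-B replicate 1 was the lowest of the UV-B arrays for each of these 3 genes. This was not particular to them. Over 2951 probe sets the slope of the UV-B arrays on the uvr8-1 response was 0.80, 0.92 and 1.04 for replicates 1, 2 and 3. The 2 that fell were THE1, which senses cell wall integrity (−1.55 ± 0.37, adjusted p = 0.00531), and CR4, an epidermal receptor kinase gene (−0.74 ± 0.14).

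Calcium sensors of the calmodulin-like family had 4 of 7 genes higher and 0 lower. CML38 had 5.60, 7.0 and 7.02 under UV-B, against 3.64, 3.1 and 4.71 in white light (2.72 ± 0.58, adjusted p = 0.00281). CML37, which promotes jasmonate responses to wounding, had 3.84, 6.43 and 5.99 under UV-B and 2.53, 2.47 and 2.56 in white light (2.90 ± 0.71, adjusted p = 0.00713). Jasmonate genes gave 4 of 7 higher and 0 lower, with a median of 1.43 and CML37 counted here too. The others were DLAH, a lipase gene (2.67 ± 0.45), JRG21, a jasmonate oxidase gene (2.43 ± 0.37), and OPCL1, which activates a jasmonate precursor (1.43 ± 0.27). PDF1.2, a defensin that jasmonate and ethylene switch on together, was at 3.17 to 3.27 under UV-B and 2.79 to 3.26 in white light (0.11 ± 0.21).

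Among 10 subtilases, which are secreted proteases, 2 rose steeply and 3 were lower. SBT3.3, known for priming immunity, had 8.34, 8.38 and 8.74 under UV-B, against 3.49, 3.45 and 3.12 in white light (5.13 ± 0.19, adjusted p = 1.55e-09), and its close relative SBT3.5 was higher by 5.82 ± 0.14. SBT1.3 was at −0.85 ± 0.16. Of 12 chitinases, lectins and other pathogenesis-related genes 2 were higher and 3 lower (25%, near the 22.3% of all genes with a symbol). The rises were the chitinase genes CHI (AT2G43570; 3.27 ± 0.76) and ChiC (2.2 ± 0.31). CHI had 6.73, 7.0 and 9.44 under UV-B and 3.90, 3.48 and 5.96 in white light, with replicate 3 the highest in both groups.

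Glucosinolates are stored defence compounds of this plant family. Of 8 glucosinolate genes 3 were lower and 1 higher. The 3 were AOP1 and AOP3, neighbours on chromosome 4, and BCAT4. AOP3 modifies the side chains of methionine-derived glucosinolates, and BCAT4 starts the lengthening of those side chains. AOP1 had 3.76, 3.61 and 3.27 under UV-B, against 5.52, 6.03 and 6.51 in white light (−2.48 ± 0.26, adjusted p = 9.57e-06). BCAT4 had 7.46, 8.08 and 8.50 under UV-B and 9.55, 9.98 and 10.07 in white light (−1.85 ± 0.31, adjusted p = 0.000423). With the replicate number as a block, 5 of the 8 were lower. The higher count was 0 without UV-B replicate 1 or 3 or white light replicate 1, and 2 without white light replicate 2. Serine carboxypeptidase-like genes had 8 of 29 lower and 2 higher (1 higher without UV-B replicate 2 or 3 or white light replicate 1 or 3 and in the fit of 6 arrays), with SCPL34 at −1.20 ± 0.26, and beta-glucosidases 3 of 22 lower and 0 higher. Of 11 RALF peptide genes, which signal in growth through wall receptors, 3 were lower and 0 higher. RALFL22 was at −1.95 ± 0.22 and RALFL34 at −1.40 ± 0.23. The shares lower of the carboxypeptidase-like (27.6%) and RALF (27.3%) classes were near the 22.3% of all genes with a symbol. Defensins, thionins and other small cysteine-rich proteins had 1 of 15 lower and 0 higher.

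Among transcription factors, 4 of 17 bZIP genes were higher, HYH, BZIP60 and BZIP28 among them, and 4 were lower, including BZIP34 (−1.57 ± 0.28). In the upper 60% of probe sets 2 were lower. Of 7 WRKY genes 2 were higher and 1 lower. WRKY6, a regulator of senescence and phosphate responses, was higher by 4.07 ± 0.37. WRKY53, a regulator of senescence, was higher by 2.2 ± 0.62, a call that ended without UV-B replicate 2 or white light replicate 1. The 1 fall in this family ended without UV-B replicate 2 or 3 or white light replicate 3, in the fit of 6 arrays and in the upper 60% of probe sets. In the bHLH family 1 of 23 was higher and 1 lower, and these counts were unstable. With the replicate block 2 were higher and 4 lower, and without UV-B replicate 1 both counts were 3. The higher count was 0 without UV-B replicate 2 or 3 or white light replicate 1 or 3 and 2 without white light replicate 2, and the lower count was 2 without white light replicate 1 and 3 without white light replicate 3. The fall was BIM1, a partner in brassinosteroid signalling (−1.05 ± 0.18). Of 40 MADS box genes 2 were lower and 0 higher (1 lower without UV-B replicate 2 or 3 or white light replicate 1 or 3), and 33 of the 40 had a mean level below 3.74, the limit under which 40% of probe sets lie. Among 10 AP2/ERF genes SNZ, a repressor of flowering, was the 1 lower (−1.76 ± 0.23) and none was higher, with 2 lower without UV-B replicate 1 and with the replicate block.

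Of 8 histone genes 7 were lower, with a median of −1.27. HTB11, a histone H2B gene, had 5.78, 5.8 and 5.88 under UV-B, against 7.18, 7.21 and 7.29 in white light (−1.41 ± 0.11, adjusted p = 8e-07). HON4, a linker-histone-like gene, had 6.53, 6.53 and 6.33 under UV-B and 7.93, 8.17 and 7.90 in white light (−1.54 ± 0.22, adjusted p = 0.000146). The naming rule required groups without overlap, as was so for 620 of the 627 genes at least 2-fold lower. For both genes the groups stood apart by more than 1 log2 unit.

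In the class of DNA replication and mitosis 9 of 20 genes were lower and 0 higher. PRL, which encodes subunit MCM7 of the replicative helicase, had 4.40, 4.85 and 5.03 under UV-B, against 6.02, 5.74 and 6.13 in white light (−1.20 ± 0.17, adjusted p = 0.000158). POLA3, a primase subunit gene, was at −1.19 ± 0.14 and ICU2, the catalytic subunit of DNA polymerase alpha, at −0.79 ± 0.16. Of 20 DNA repair and recombination genes 4 were lower and 1 higher, and 13 of the 20 had a mean level below 3.74. The share lower was near the 22.3% of all genes with a symbol. The lower count was 2 without UV-B replicate 2 or white light replicate 3, and the rise was called in no fit that left out an array other than UV-B replicate 2. DRT100 was the largest fall, with 6.63, 6.78 and 6.07 under UV-B and 9.07, 9.25 and 8.47 in white light (−2.43 ± 0.21, adjusted p = 1.75e-06). It was named after a bacterial repair screen and encodes a leucine-rich repeat protein. The polymerase gene POLH, which copies past UV lesions, was at −0.18 ± 0.12 (adjusted p = 0.297).

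Chromatin remodelling genes had 5 of 15 lower and 1 higher. ETL1 was the rise, with 7.11, 7.14 and 7.07 under UV-B and 5.24, 5.87 and 5.62 in white light (1.53 ± 0.16, adjusted p = 1.01e-05). INO80, which acts in recombination repair, was at −0.50 ± 0.11. The lower count was 2 without white light replicate 2, and 3 without white light replicate 3, in the fit of the 6 wildtype arrays and with an intensity trend. Nuclear RNA polymerases had 5 of 12 subunit genes higher and 0 lower. NRPA2, the second largest subunit of the polymerase that makes ribosomal RNA, had 7.28, 7.37 and 7.32 under UV-B and 5.81, 6.09 and 5.78 in white light (1.43 ± 0.17, adjusted p = 2.83e-05). NRPB12, a subunit shared by the polymerases, was higher by 1.14 ± 0.19. The other 3 rises ran from 0.43 to 0.55, and the count of the class was 3 after quantile normalisation, 2 without UV-B replicate 1 and 3 without UV-B replicate 2 or white light replicate 1.

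None of the 18 expansins, which loosen walls, was higher, and 8 were lower with a median of −0.40 (5 without white light replicate 2). EXPA16 had 4.2, 4.16 and 3.48 under UV-B and 6.04, 5.55 and 5.16 in white light (−1.64 ± 0.41, adjusted p = 0.00776). Of 10 xyloglucan endotransglucosylase genes 2 were higher and 2 lower. XTH16 had 4.41, 3.55 and 3.66 under UV-B, against 6.25, 6.89 and 6.30 in white light (−2.61 ± 0.27, adjusted p = 8.37e-06). XTH18 ran against it with 4.81, 6.96 and 4.96 under UV-B and 3.59, 3.41 and 3.61 in white light (2.04 ± 0.60, adjusted p = 0.0194), a call that ended without UV-B replicate 2 or white light replicate 2, with adjusted p up to 0.0881. The higher count was 1 in those fits and without white light replicate 3.

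Cellulose synthase-like genes, which make hemicellulose backbones, had 4 of 8 lower and 0 higher, among them CSLC5 (−1.12 ± 0.25) and CSLC04 (−0.92 ± 0.14), both xyloglucan synthase genes. Xylan and trichome birefringence-like genes, many of which acetylate wall sugars, had 7 of 27 lower and 1 higher with a median of −0.02, a share near the 22.3% of all genes with a symbol. TBL25 had 6.12, 5.22 and 5.42 under UV-B, against 7.75, 7.83 and 8.11 in white light (−2.31 ± 0.29, adjusted p = 4.42e-05), and the 1 rise was TBL37 with 8.91, 8.50 and 9.05 under UV-B and 6.78, 6.90 and 6.43 in white light (2.12 ± 0.25, adjusted p = 2.68e-05). Endo-glucanases of family GH9 had 4 of 15 lower and 0 higher with a median of −0.09, likewise near that share. Of 8 genes of pectin synthesis, modification and breakdown limma called 0, with 4 at an unadjusted p under 0.05, and after quantile normalisation 2 were lower.

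The class of microtubule- and actin-associated proteins had 24 of 58 genes lower (41.4%) and 2 higher. The higher count was 0 without UV-B replicate 2 or white light replicate 3 and in the fit of 6 arrays, and 1 without any other array except UV-B replicate 3. Its median was −0.30, and 27 of the 58 had a mean level below 3.74. The largest falls were those of a pair of IQD genes, whose proteins bind calmodulin and sit on microtubules. iqd21 had 5.57, 5.22 and 5.02 under UV-B, against 7.15, 7.50 and 7.59 in white light (−2.14 ± 0.19, adjusted p = 2.41e-06), and IQD24 was at −1.91 ± 0.29. WLIM1, which bundles actin filaments, had 6.41, 6.62 and 6.90 under UV-B and 8.27, 8.36 and 8.19 in white light (−1.63 ± 0.13, adjusted p = 9.78e-07). Tubulins themselves had 4 of 7 lower and 0 higher. TUB5, a beta-tubulin gene, had 6.83, 7.21 and 6.94 under UV-B and 8.76, 9.12 and 8.69 in white light (−1.86 ± 0.27, adjusted p = 0.000145).

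Of 5 gibberellin receptor and F-box genes 1 was higher and 1 lower, with a median of −0.41. This class gave 2 falls without UV-B replicate 1, with an intensity trend, in the upper 60% of probe sets and with the replicate block. The rise was GID1B and the fall SLY1, which targets growth repressors for removal (−0.77 ± 0.18). GID1B, a gibberellin receptor gene, had 5.39, 5.83 and 6.08 under UV-B, against 3.54, 3.68 and 3.6 in white light (2.16 ± 0.23, adjusted p = 1.38e-05). Of 16 genes of auxin synthesis, conjugation and Aux/IAA repression 1 was higher (2 without UV-B replicate 3), GH3.3, which joins auxin to amino acids. The 1 fall was called in no fit that left out an array other than white light replicate 2. STOMAGEN, a peptide from the mesophyll that promotes stomata, had 5.85, 6.22 and 5.45 under UV-B and 6.83, 7.22 and 7.08 in white light (−1.21 ± 0.17, adjusted p = 0.000151), and it was the 1 call among 9 genes of stomatal and trichome development. That count was 3 with the replicate block and without white light replicate 3, and 2 without UV-B replicate 1, in the fit of 6 arrays and in the upper 60% of probe sets. Tetraspanins, membrane organisers, had 3 of 15 lower, with TET3 at −1.42 ± 0.16, and 1 higher, TET8, at 1.51 ± 0.21. Their share lower was near the 22.3% of all genes with a symbol. TET8 marks the vesicles that plant cells export.

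**Figure D3:**
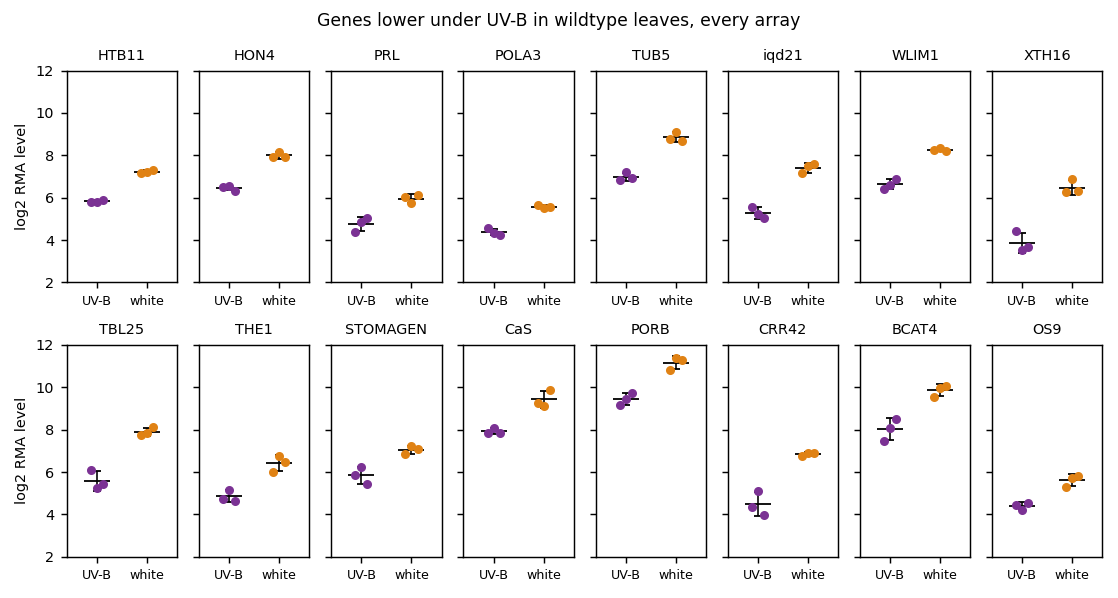
Log2 RMA level (vertical axis) of 16 genes called lower under UV-B, on the 3 UV-B arrays (left, purple) and the 3 white light arrays (right, orange) of wildtype. Points are arrays and black lines are the mean and SD; in every panel the UV-B arrays lie below the white light arrays, as the naming rule required.

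Of 20 genes for photosystem, electron transport and ATP synthase proteins and their assembly factors, 16 were lower and 0 higher, with a median of −0.65. The mean level over these 20 genes was 8.67, 8.54 and 8.31 on the UV-B arrays and 9.18, 9.07 and 9.29 on the white light arrays. The falls ran from −0.35 to −1.50, so no member fell 4-fold. The count was 9 without UV-B replicate 3, the array with the lowest mean level of the class, and between 11 and 16 in the other alternatives. CaS, a thylakoid calcium sensor gene, had 7.84, 8.09 and 7.86 under UV-B, against 9.28, 9.12 and 9.89 in white light (−1.50 ± 0.26, adjusted p = 0.000555). NdhS, a subunit of the chloroplast NAD(P)H dehydrogenase-like complex, was at −1.32 ± 0.14 and NdhL, of the same complex, at −1.07 ± 0.18. Of 5 antenna and LIL3 genes 4 were lower and 0 higher, with a median of −0.69. LHCB4.2, a minor antenna protein of photosystem II, was the largest of these falls at −2.34 ± 0.29.

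Chlorophyll synthesis genes were lowered at several steps. In the class of chlorophyll, haem and carotenoid synthesis 6 of 15 genes were lower and 1 higher. CHLI2, a magnesium chelatase subunit gene, had 6.61, 6.60 and 6.58 under UV-B, against 7.97, 7.47 and 7.92 in white light (−1.19 ± 0.17, adjusted p = 0.000159). CHLM, the methyltransferase of the next step, was at −1.15 ± 0.15, and PORB, which makes chlorophyllide in the light, at −1.72 ± 0.17. HEMA2, an isoform of the enzyme that starts the pathway, had 5.59, 6.36 and 6.38 under UV-B and 4.40, 4.24 and 4.72 in white light (1.66 ± 0.27, adjusted p = 0.000398). HEMA2 was thus the 1 gene of the class that rose. CRR42, needed for the NAD(P)H dehydrogenase-like complex, had 4.35, 5.09 and 3.99 under UV-B and 6.77, 6.90 and 6.88 in white light (−2.38 ± 0.24, adjusted p = 6.42e-06). Its symbol placed it in the plastid RNA editing and processing class, where its fall was the largest. That fall does not speak for RNA editing. In this class 4 of 17 were lower, near the 22.3% of all genes with a symbol. That count was 1 without UV-B replicate 3 or white light replicate 3. It was 2 without UV-B replicate 1 or white light replicate 2, in the fit of 12 arrays and after median centring.

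For the 69 genes encoded in the chloroplast the count of calls was not stable. The median was −0.63, 7 genes were lower and 0 higher, and with the replicate number as a block 32 were lower. None was called without UV-B replicate 2 or without white light replicate 3, 3 were called without UV-B replicate 1, 4 in the fit of 12 arrays, and 11 without UV-B replicate 3 and in the upper 60% of probe sets. The mean level over these genes was 8.66, 8.10 and 9.12 on the UV-B arrays and 9.19, 9.05 and 9.82 on the white light arrays. The lowest white light array thus lay below the highest UV-B array, while at each replicate number the UV-B array was the lower. Over the alternatives the class median ran from −0.87 to −0.36. Per the labels, RNA was primed with an oligo-dT, which reads chloroplast transcripts only where they carry adenines, and the part of the priming in these values was not tested.

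Carbon stores and transport changed in a few genes. Starch and sucrose genes had 5 of 12 lower and 0 higher, with DPE1, which recycles starch fragments at night, at −1.20 ± 0.23. Among 21 SWEET and tonoplast sugar transporter genes 6 were lower (28.6%, near the 22.3% of all genes with a symbol) and 1 higher. SWEET2, which moves sugar into the vacuole, had 8.04, 8.28 and 8.03 under UV-B, against 5.98, 4.69 and 5.79 in white light (2.63 ± 0.28, adjusted p = 1.12e-05), and TMT2, a vacuolar sugar importer gene, was at −0.82 ± 0.18. Cold, dehydration and LEA genes had 3 of 15 higher and 2 lower. LTI30, a dehydrin gene, had 8.02, 7.79 and 8.39 under UV-B and 5.08, 4.17 and 3.44 in white light (3.83 ± 0.48, adjusted p = 4.91e-05), while COR47, another dehydrin gene, was at −1.01 ± 0.26. For lipids, CCT2 of phosphatidylcholine synthesis was higher by 1.54 ± 0.25 and PMEAMT, which methylates phosphoethanolamine, was at −1.32 ± 0.27.

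Most of the next largest changes belong to genes known by locus only, as do 11799 of all 13356 genes. The rises ranked 11 to 20 in size, after the 10 largest, ran from 5.09 to 5.56, and SBT3.3 was the 1 of these 10 with a symbol. AT3G22060 had 10.13, 10.70 and 10.72 under UV-B, against 4.27, 4.17 and 6.87 in white light, with white light replicate 3 well above the others (5.41 ± 0.61, adjusted p = 1.92e-05). AT1G10585 had 7.2, 7.58 and 8.59 under UV-B and 2.47, 2.54 and 2.47 in white light (5.30 ± 0.33, adjusted p = 1.28e-07). The falls ranked 11 to 20 ran from −2.68 to −3.09, and none of these genes has a symbol. AT2G34620 had 6.39, 5.92 and 6.06 under UV-B and 9.32, 8.80 and 9.44 in white light (−3.06 ± 0.23, adjusted p = 6.49e-07).

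Genes that lie next to each other were compared by their order on the chromosomes. Of 5814 neighbouring pairs with both genes measured, both were higher in 131, both lower in 222 and 1 was higher and 1 lower in 208. A neighbour of a raised gene was itself raised in 19.1% of cases, against 11.8% of all genes in these pairs. For lowered genes the shares were 21.4% and 17.8%. Among pairs in which both genes have a symbol, UGT73B4 with UGT73B5, UGT84A1 with UGT84A3 and UGT71C4 with UGT71C5 were raised together, and AOP1 with AOP3 was lowered together. Neighbours of 1 family share sequence, and the part of cross-hybridisation was not tested.

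The uvr8-1 mutant was used to test which of these changes differed between the genotypes. The difference of responses, uvr8-1 minus wildtype, was called negative for 83 of 13356 genes (0.621%) and positive for 3 (0.0225%). Of the 781 genes raised at least 2-fold in wildtype 60 (7.68%) had a smaller response in uvr8-1. Of the 627 genes lowered at least 2-fold in wildtype 0 had a smaller fall in uvr8-1. Counted by probe set, 128 of the 1602 at least 2-fold higher in wildtype had a smaller response in uvr8-1. Of the 1227 probe sets at least 2-fold lower, 1 had a smaller fall, a count of 0 to 2 when single wildtype arrays were left out. The wildtype arrays chose these genes and enter the difference of responses, so the direction among genes chosen for a large wildtype response is partly fixed by that choice.

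Beyond the sunscreen genes, the genes with a smaller response in uvr8-1 included both succinate dehydrogenase subunits. For SDH2-1 the response was 0.63 ± 0.12 in uvr8-1 and 2.86 ± 0.12 in wildtype, a difference of −2.23 ± 0.18 (adjusted p = 2.4e-05). For SDH1-1 it was 0.51 ± 0.16 in uvr8-1 and 2.15 ± 0.16 in wildtype (−1.65 ± 0.23, adjusted p = 0.00248). The responses of IDH-V, 1.40 ± 0.16 in uvr8-1 and 1.08 ± 0.16 in wildtype, were not called different (0.32 ± 0.23). GSTU28 gave 0.16 ± 0.22 in uvr8-1 and 2.11 ± 0.22 in wildtype (−1.94 ± 0.31, adjusted p = 0.00692), and UGT73C1 gave 3.08 ± 0.20 in uvr8-1 and 4.73 ± 0.20 in wildtype (−1.64 ± 0.28, adjusted p = 0.00994). GME, of ascorbate synthesis, was lower under UV-B in uvr8-1 (−0.31 ± 0.10) and higher in wildtype (0.68 ± 0.10). SWEET2, at 0.83 ± 0.28 in uvr8-1 and 2.63 ± 0.28 in wildtype, missed the threshold (adjusted p = 0.0559), as did UF3GT at −0.04 ± 0.31 in uvr8-1 and 1.83 ± 0.31 in wildtype (adjusted p = 0.0881).

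Most classes gave like counts without UVR8, although a like count does not show that the same genes responded; genes were higher in 11.4% and lower in 16.8% of cases in uvr8-1. Of the 7 flavonoid genes 0 were higher in uvr8-1 and 4 in wildtype. The photosystem class had 19 of 20 lower in uvr8-1 and 16 in wildtype, the histones 7 of 8 in each, the microtubule- and actin-associated class 23 of 58 in uvr8-1 and 24 in wildtype, and DNA replication and mitosis 10 of 20 in uvr8-1 and 9 in wildtype. The glycosyltransferases had 19 of 39 higher in uvr8-1 and 14 in wildtype. No gene of the photosystem, histone, microtubule or replication classes had a difference of responses that was called. Over all genes 0.621% were called negative and 0.0225% positive, so a count of 0 is near those shares.

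**Figure D4:**
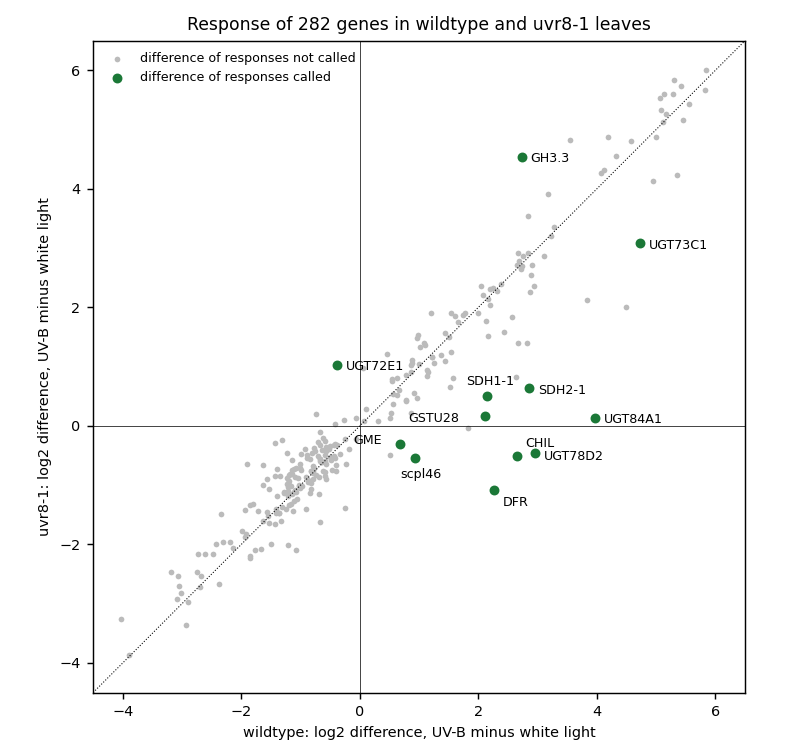
Log2 difference between UV-B and white light in uvr8-1 (vertical axis) against that in wildtype (horizontal axis) for the 282 genes taken up by the naming rule. Points are genes, green and labelled where the difference of responses was called (12 genes), and the dotted line marks equal responses; SDH2-1 lies at 0.63 in uvr8-1 and 2.86 in wildtype.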

How the data were processed

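Leaf RNA of 15 samples was hybridised, 1 sample per 1-colour ATH1 array. The deposited values are log2 levels that the authors made with RMA, per the submitters' processing notes; RMA brings the arrays to 1 distribution and summarises the probes of each probe set. No source used here gives the RMA version, its background step or whether 1 run held all arrays. Values ran from 1.99 to 13.1, and no further normalisation was applied. No 2 arrays held identical values. Per the series' design text the replicates are biological. The number of arrays limits the precision.

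After removal of 64 controls, 22746 probe sets were tested, with no signal filter. The annotation paired 13513 with 1 gene, 503 with several and 8730 with none. Symbols and gene order came from RefSeq (TAIR10.1), where 13436 of the 13513 were found. Coordinates are not printed, since the arrays' build is unnamed. Where a gene had several probe sets, that with the highest mean over all arrays was used. Promoter sequences were not analysed here.

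With limma 3.58.1 in R 4.3.3, a model with a mean for each of the 5 groups was fitted over the 15 arrays (10 residual and 3.09 prior degrees of freedom), with 2-sided tests and Benjamini-Hochberg adjustment over the 22746 probe sets. On simulated data with the real group sizes and spread it was checked that the script recovers known changes. Equally numbered UV-B and white light arrays deviated together from their group means (correlations of 0.33, 0.27 and 0.10 for numbers 1, 2 and 3), so a fit with the replicate number as a block was run beside the main one. The alternatives were that block, fits of the 6 wildtype or the 12 wildtype and uvr8-1 arrays, median centring, quantile normalisation, the upper 60% of probe sets by mean, an intensity trend, and leaving out each wildtype array. The GAPDH, actin and ubiquitin differences was compared by a 2-sided exact permutation test in Python 3.11.15 with scipy 1.17.1. Tables and plots were made with pandas 2.3.3, numpy 2.4.6 and matplotlib 3.10.9.

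The classes and lists were chosen with earlier results of these data known. The 68 classes hold 1017 genes grouped by symbol; they were rewritten once the annotation was seen to hold almost no gene descriptions, and genes known by locus only are in none but those encoded in the organelles. A further 9 pathway lists of 161 loci had only 36 measured members with a symbol. The naming rule took, per class or list, up to 4 called genes with the largest differences in the direction with more calls and up to 2 in the other, among genes whose groups do not overlap, every measured member of a pathway list with 8 or fewer, and the changes ranked 11 to 20. This gave 282 genes, from which the text draws its names. Genes outside the rule are given as examples of a class that did not pass, as members of neighbouring pairs, or as said in the text. The hy5-1 arrays were used only in the fit.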

Additional observations from a re-analysis of the deposited data

Results flagged for a closer look

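The responses to UV-B of 12 named genes differed between the genotypes in limma's test of the difference of responses (uvr8-1 minus wildtype, 3 arrays per group). A smaller response in uvr8-1 was found for UGT84A1 (−3.83, adjusted p = 0.000132), UGT78D2 (−3.42, adjusted p = 0.000108), DFR (−3.34, adjusted p = 0.0144), CHIL (−3.16, adjusted p = 0.00419), SDH2-1 (−2.23, adjusted p = 2.4e-05), GSTU28 (−1.94, adjusted p = 0.00692), SDH1-1 (−1.65, adjusted p = 0.00248), UGT73C1 (−1.64, adjusted p = 0.00994) and GME (−1.0, adjusted p = 0.00339). GH3.3, which conjugates auxin, had a larger response in uvr8-1 (1.81, adjusted p = 0.00853). These 10 calls held in all 12 alternatives that could test them.

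The call of scpl46 (−1.48, adjusted p = 0.0403) ended in 6 of the 12 alternatives, the highest adjusted p being 0.12, with UV-B replicate 2 of wildtype left out. That of UGT72E1 (1.41, adjusted p = 0.0238) ended in 4 of the 12, the highest adjusted p being 0.0751, with white light replicate 3 of wildtype left out. Groups of 3 arrays are too small for a search for single arrays that stand apart from the rest of their group.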

How the results depend on the processing

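Of the 282 named genes 271 were called, and 48 of these lost the call in 1 or more of 13 alternatives (the signal filter tested 264 of the 282); no difference changed sign. The numbers of probe sets higher (2776) and lower (4165) ranged from 2351 to 3059 and from 3254 to 4692. The count of probe sets at least 2-fold lower with a smaller fall in uvr8-1, 1 in the main analysis, was 0 in the fit of 12 arrays and 0 to 2 when single wildtype arrays were left out. The replicate block gave 3059 higher and 4692 lower; no named gene lost its call under it, and it moved the lower count of the chloroplast-encoded class from 7 to 32. Class counts under other settings were alternatives added after seeing the data. No class median of 0.25 or more in size changed sign in any of them; of 136 class counts, 5 to 24 moved over 1.5 times per alternative (0 when all probe sets of a gene were used), 1 to 7 of them counts of 4 or more genes. The fit of the 6 wildtype arrays could not give a difference of responses, and the planned search of promoters for motifs was not run. Levels below 3.74 and 3 arrays per group limit what can be seen.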
